A study of Homo sapiens with 8 samples.

Results

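The transcription factors of mesenchymal transition considered here are SNAI1, SNAI2, TWIST1, TWIST2, ZEB1, ZEB2, PRRX1 and FOXC2. They were taken by gene symbol, and all 8 were found among the 34415 genes of the deposited table. RNA came from TeloHAEC, an endothelial line made from human aortic cells and immortalised with telomerase, labelled wild type. The estradiol group held 4 libraries of cells given estradiol (E2), and the control group held 4 libraries of cells without it. Both groups were grown with palmitic acid (PA), so palmitic acid itself cannot be compared with its absence. The treatment tag of the estradiol samples names only PA and that of the controls only the control, so groups were taken from the sample titles. It is a single line, and no dose or exposure time is given here for either agent. Whether replicates were separate cultures is not stated in the labels, so every p-value reflects library-to-library spread, possibly only technical. The series title concerns transdifferentiation of endothelial cells in atherosclerosis, and estradiol against control is the comparison its design gives.

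In a mesenchymal transition, epithelial or endothelial cells lose junctions and gain traits of mesenchymal cells. The SNAI factors (zinc finger proteins) and the ZEB factors (zinc finger and homeobox proteins) bind E-box motifs and repress junction genes such as CDH1, the epithelial cadherin. TWIST factors are basic helix-loop-helix proteins that bind DNA together with E proteins, PRRX1 is a homeobox factor of mesenchyme, and FOXC2 is a forkhead factor also known for its part in lymphatic vessel development. In the endothelium the transition is known to be driven by TGF-beta and is studied in heart valve development and in atherosclerosis.

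ZEB1 was the most abundant of these transcripts, and no factor differed between estradiol and control beyond the spread between libraries. Levels are given as FPKM (fragments per kilobase of gene length, scaled to the total of the library). They are set against each other across genes without any correction for base composition. Mean levels over all 8 libraries ran from 18.2 ± 2.89 FPKM for ZEB1 to 0.209 ± 0.0681 FPKM for SNAI2 (SD, n = 8). Among the 23471 genes above 0 in any library, ZEB1 stood at the 86.9th percentile of mean level and SNAI2 at the 44.0th. SNAI2 and TWIST1 were the only members under a mean of 1 FPKM, the minimum used for the gene test. In bulk RNA a lower level can mean fewer expressing cells or less RNA per cell, and these cannot be told apart.

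**Figure D1:**
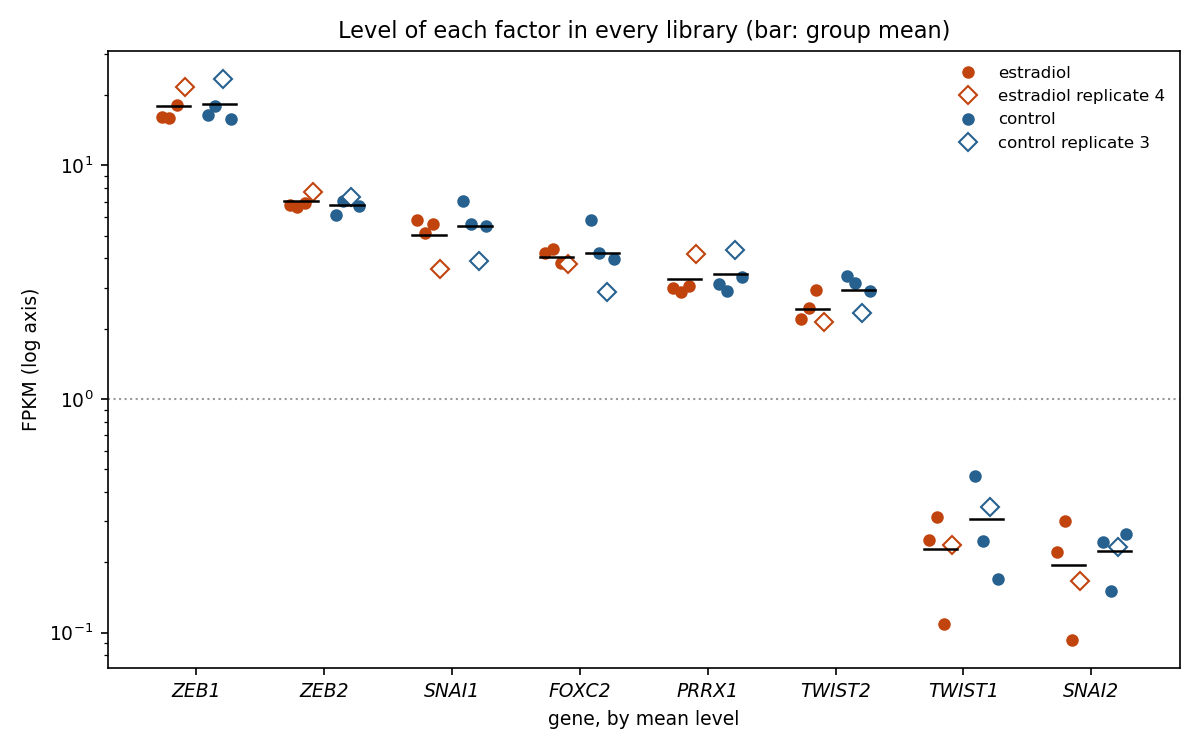
FPKM (log axis) of each factor in every library, ordered by mean level, with estradiol left of control, a bar at each group mean and a dotted line at 1 FPKM. ZEB1 lies highest and TWIST1 and SNAI2 lie under 1 FPKM, and the open diamonds (estradiol replicate 4 and control replicate 3) lie highest in their group for ZEB1, ZEB2 and PRRX1 and lowest for SNAI1, FOXC2 and TWIST2.

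ZEB1 measured 16.1, 16.0, 18.1 and 21.6 FPKM in estradiol libraries 1 to 4, against 16.4, 17.999, 23.5 and 15.7 FPKM in control libraries 1 to 4. The groups overlapped, with estradiol replicate 4 and control replicate 3 highest. ZEB2, the related repressor, measured 6.79, 6.62, 6.92 and 7.71 FPKM in estradiol libraries, against 6.13, 7.02, 7.30 and 6.70 FPKM in control libraries. Without correction for base composition it varied least of the 8, with an SD over all libraries of 6.83% of its mean, against 15.9% for ZEB1 and 41.1% for TWIST1. ZEB1 exceeded ZEB2 in 8 of 8 libraries, by a mean of 2.61-fold.

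SNAI1, which encodes Snail, measured 5.83, 5.12, 5.59 and 3.60 FPKM in estradiol libraries, against 7.03, 5.62, 3.91 and 5.53 FPKM in control libraries. The groups overlapped, at 3.60 to 5.83 FPKM with estradiol and a wider 3.91 to 7.03 FPKM in controls. The lowest values were those of estradiol replicate 4 and control replicate 3. SNAI2, which encodes Slug, measured 0.222, 0.302, 0.0932 and 0.166 FPKM in estradiol libraries, from 19, 22, 8 and 14 reads. In control libraries it measured 0.245, 0.150, 0.232 and 0.264 FPKM, from 21, 13, 19 and 23 reads. The 8 reads of estradiol replicate 3 have an exact 95% Poisson interval of 3.45 to 15.8, which covers counting error only. SNAI1 exceeded SNAI2 in every library, and the geometric mean of the ratio was 26.2 over the 8 libraries.

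TWIST2 measured 2.21, 2.45, 2.92 and 2.14 FPKM in estradiol libraries, against 3.37, 3.14, 2.34 and 2.89 FPKM in control libraries. Estradiol replicate 3 lay among the controls and control replicate 3 among the estradiol libraries, so the groups overlapped. TWIST1 measured 0.250, 0.312, 0.109 and 0.237 FPKM in estradiol libraries, from 16, 17, 7 and 15 reads. In control libraries it measured 0.468, 0.247, 0.343 and 0.169 FPKM, from 30, 16, 21 and 11 reads. TWIST2 exceeded TWIST1 in 8 of 8 libraries, by a mean of 10.7-fold. The reads of TWIST1 had an SD of 6.82 over the 8 libraries, where counting alone gives 4.08 at their mean of 16.6.

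PRRX1 measured 2.98, 2.86, 3.06 and 4.18 FPKM in estradiol libraries, against 3.10, 2.89, 4.33 and 3.33 FPKM in control libraries. Apart from estradiol replicate 4 and control replicate 3, all its values lay between 2.86 and 3.33 FPKM. FOXC2 measured 4.20, 4.40, 3.83 and 3.77 FPKM in estradiol libraries, against 5.86, 4.22, 2.86 and 3.97 FPKM in control libraries. The control group thus held both the highest and the lowest FOXC2 value. FOXC2-AS1, an antisense neighbour, averaged 4.005 ± 1.42 FPKM in estradiol and 3.68 ± 0.731 FPKM in control libraries (SD, n = 4 each). ZEB1-AS1, the antisense neighbour of ZEB1, averaged 1.35 ± 0.0811 and 1.28 ± 0.259 FPKM in the same groups. No source used here states whether counting used strand, so reads of FOXC2 or ZEB1 and of these neighbours cannot be told apart where the genes overlap.

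The order of mean levels was ZEB1, ZEB2, SNAI1, FOXC2, PRRX1, TWIST2, TWIST1 and SNAI2. Each of the 7 neighbours in that order was compared within libraries, with an exact two-sided sign-flip permutation test of the log2 ratio. The pairs and their direction came from these same 8 libraries, so a passed step is not separate support for the order. The test asks only how steady a ratio of FPKM is across libraries, and a steady effect of base composition could pass it too. The steps from ZEB1 to ZEB2 (8 of 8 libraries), ZEB2 to SNAI1 (1.33-fold, 7 of 8), SNAI1 to FOXC2 (1.27-fold, 7 of 8) and TWIST2 to TWIST1 (8 of 8) passed. Their adjusted p was 0.0273 in each case by that exact test. The steps from FOXC2 to PRRX1 (1.23-fold, 6 of 8 libraries, exact adjusted p = 0.125), PRRX1 to TWIST2 (1.25-fold, 6 of 8, exact adjusted p = 0.0984) and TWIST1 to SNAI2 (1.25-fold, 7 of 8, exact adjusted p = 0.119) did not pass. PRRX1 stood above FOXC2 in the 2 libraries with the highest PRRX1, estradiol replicate 4 and control replicate 3.

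In the test across all genes, 0 of the 6 factors tested were called. limma on log2(FPKM + 1), with Benjamini-Hochberg adjustment over the 10720 genes with a mean of at least 1 FPKM, called 0% of genes at an adjusted p under 0.05. The smallest adjusted p was 0.999989, and 26 genes had an unadjusted p under 0.05, none of them a member. limma-voom on the recovered reads also called 0 genes, with 22 at an unadjusted p under 0.05. In the limma fit on log2(FPKM + 1), the median SE of the log2 fold change over tested genes was 0.125. It was 0.055 in a fit with a term for estradiol replicate 4 and control replicate 3. The spread from those libraries thus widened the main test, and a lack of calls does not show that no gene differs. Groups did not overlap for 0 of the 8 factors, against 0.532% of the tested genes. Of the 6 tested factors, 1 had a positive and 5 a negative log2 fold change, with a median of -0.04. Over all tested genes, 5308 were positive and 5412 negative, with a median of -0.00047.

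TWIST2 had the largest difference of the 6 on the log2(FPKM + 1) scale. It averaged 2.43 ± 0.351 FPKM in estradiol and 2.93 ± 0.440 FPKM in control libraries (SD, n = 4 each), a log2 fold change of -0.20 ± 0.11 (SE) with a 95% interval of -0.44 to 0.05. Its limma adjusted p was 0.999989 (unadjusted p = 0.101), and 1.52% of tested genes had a larger change in either direction. Without estradiol replicate 4 and control replicate 3 it averaged 2.52 ± 0.359 FPKM with estradiol and 3.13 ± 0.238 FPKM in controls (SD, n = 3 per group). The exact permutation p was 0.20, and 0.10 is the smallest this size allows. In those 2 libraries alone it stood at 2.14 FPKM with estradiol and 2.34 FPKM in the control. With a term for that pair of libraries the limma log2 fold change was -0.20 ± 0.07 (SE), with an unadjusted p of 0.0231 and an adjusted p of 0.999956. Over all 22 fits its adjusted p lay between 0.791 and 1.00, with an unadjusted p under 0.05 in 4. Those 4 were the fits without estradiol replicate 3, without control replicate 3, without that pair of libraries, and with the term for it. Among all genes, 14 of 10722, 183 of 10721, 413 of 10733 and 351 of 10720 had such a limma p in these fits. The 4 fits share most libraries, so they are not separate support.

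SNAI1 averaged 5.04 ± 1.00 FPKM in estradiol and 5.52 ± 1.27 FPKM in control libraries (SD, n = 4 each), with a log2 fold change of -0.11 and a 95% interval of -0.48 to 0.27. The other 4 tested factors had smaller differences. ZEB1 averaged 17.9 ± 2.64 FPKM with estradiol and 18.4 ± 3.52 FPKM in controls, with an interval of -0.34 to 0.29 on the log2 scale. ZEB2 averaged 7.01 ± 0.485 and 6.79 ± 0.50 FPKM in these groups, with an interval of -0.15 to 0.23, the narrowest of the 6 in this fit. For PRRX1 the means were 3.27 ± 0.612 FPKM with estradiol and 3.41 ± 0.635 FPKM in controls, with an interval of -0.33 to 0.24. For FOXC2 they were 4.05 ± 0.303 FPKM with estradiol and 4.23 ± 1.24 FPKM in controls, with an interval of -0.36 to 0.32 (SD, n = 4 each). The intervals give the differences that these 4 libraries a group are compatible with, and the fold changes, on the scale of FPKM + 1, understate changes of low genes. With a GC trend removed from each library, the interval was -0.17 to 0.22 for ZEB2 and -0.14 to 0.064 for ZEB1. ZEB2 was thus not the narrowest in that fit.

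**Figure D2:**
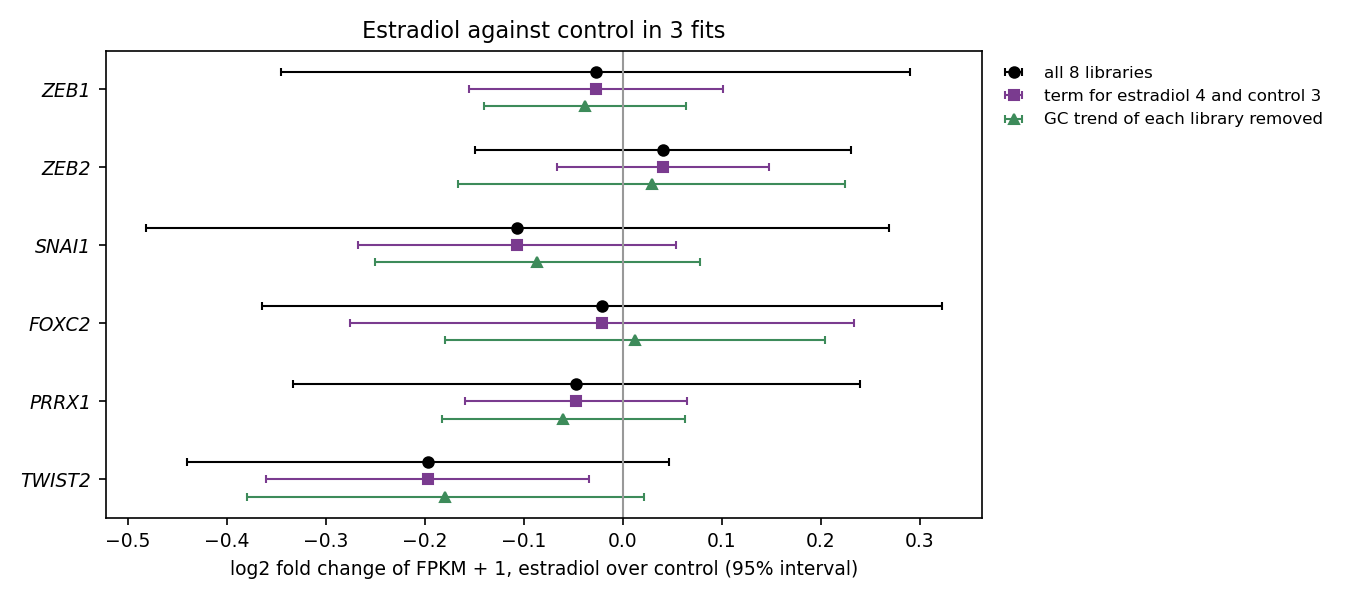
Log2 fold change of FPKM + 1, estradiol over control, with 95% intervals for the 6 tested factors in 3 limma fits: all 8 libraries, with a term for estradiol replicate 4 and control replicate 3, and after removal of a GC trend per library. TWIST2 lies furthest from 0 in each fit, at -0.20, -0.20 and -0.18, and its interval leaves 0 only in the fit with the term (-0.36 to -0.03).

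For TWIST1 and SNAI2 the difference of mean FPKM was set against all 70 ways of splitting the libraries, an exact permutation test (two-sided) that cannot go below p = 0.0286. TWIST1 averaged 0.227 ± 0.0852 FPKM in estradiol and 0.307 ± 0.129 FPKM in control libraries (SD, n = 4 each), with an exact permutation p of 0.371 and 0.629 after adjustment over both genes. SNAI2 averaged 0.196 ± 0.0883 and 0.223 ± 0.0503 FPKM in those groups (SD, n = 4 each), with an exact permutation p of 0.629 before and after adjustment. Neither passed, and each rests on 7 to 30 reads a library. The TWIST1 difference, estradiol minus control, was -0.0798 FPKM with all libraries, -0.0260 without control replicate 1, -0.0404 without estradiol replicate 3 and -0.126 without control replicate 4.

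The balance within each family was compared as a within-library log2 ratio of FPKM, which a common scaling of a library cannot move but its GC trend can where the pair differs in GC content. SNAI2 and SNAI1 do so, at 41.4% and 58.2% GC, as against 39.1% and 38.5% for ZEB2 and ZEB1 and 57.0% and 57.2% for TWIST2 and TWIST1. Even so, the ZEB2 to ZEB1 log2 ratio was the lowest of its group in estradiol replicate 4 and control replicate 3. In estradiol replicate 4 it was -1.49, against -1.38 to -1.24 in the other estradiol libraries. In control replicate 3 it was -1.69, against -1.42 to -1.23 in the other controls, and the reason was not tested. ZEB2 to ZEB1 averaged -1.35 ± 0.11 in estradiol and -1.42 ± 0.19 in control libraries, TWIST2 to TWIST1 3.51 ± 0.83 and 3.34 ± 0.64, and SNAI2 to SNAI1 -4.79 ± 0.79 and -4.63 ± 0.51 (SD, n = 4 each). None of the 3 passed (exact permutation p = 0.60, 0.743 and 0.80, each 0.80 after adjustment over the 3). The difference of the SNAI2 to SNAI1 log2 ratio, estradiol minus control, was -0.15 with all libraries, 0.032 without control replicate 3 and 0.22 without estradiol replicate 3. The TWIST ratio was 26.7 in estradiol replicate 3, where TWIST1 had 7 reads, against 6.82 to 17.1 in the other 7 libraries. In every library the more abundant member of each family was the same: ZEB1, TWIST2 and SNAI1.

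**Figure D3:**
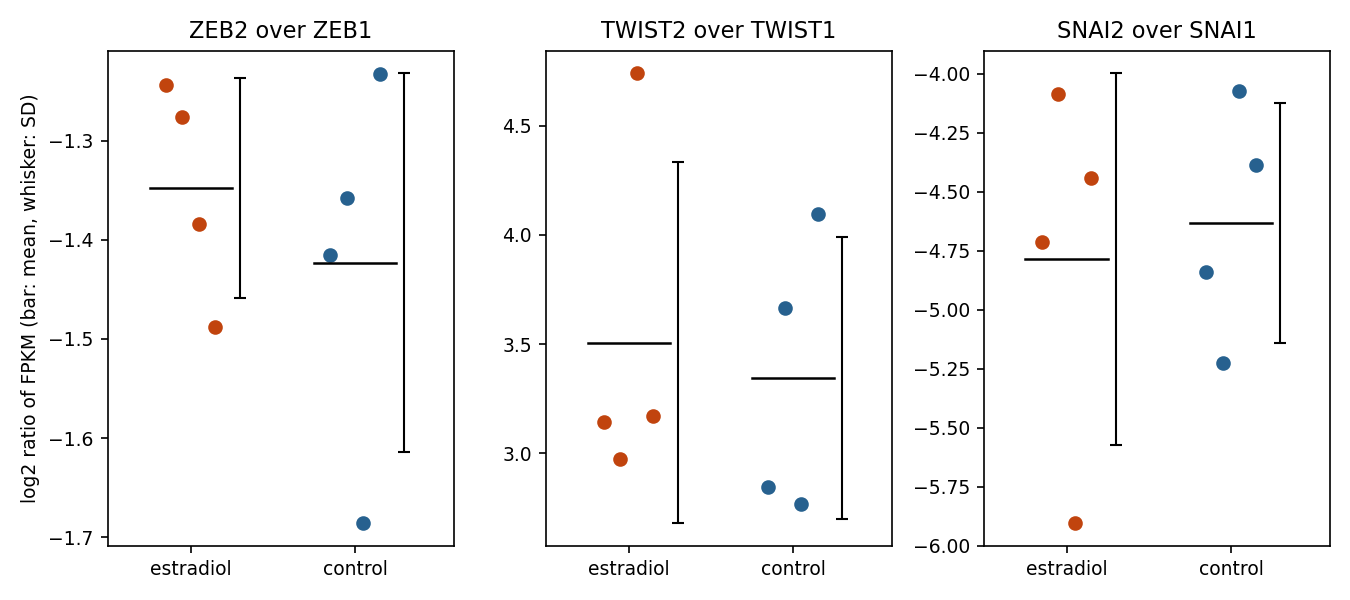
Log2 ratio of FPKM within each library for ZEB2 over ZEB1, TWIST2 over TWIST1 and SNAI2 over SNAI1, with estradiol left of control, bars at group means and whiskers for the SD (n = 4). The groups overlap for all 3 ratios, and the lone high TWIST ratio of 4.74 is estradiol replicate 3.

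The 6 tested factors fell into 2 sets by how they varied between libraries, and these sets did not follow estradiol. In estradiol replicate 4 and in control replicate 3, ZEB1, ZEB2 and PRRX1 were each the highest of their group, and SNAI1, FOXC2 and TWIST2 each the lowest. Against the median of the other 3 libraries of its group, on the log2(FPKM + 1) scale, ZEB1 differed by 0.41 in estradiol replicate 4 and 0.50 in control replicate 3. PRRX1 differed by 0.38 and 0.38 in these libraries, and ZEB2 by 0.16 and 0.11. SNAI1 differed by -0.52 and -0.43, FOXC2 by -0.12 and -0.44, and TWIST2 by -0.14 and -0.31. The pattern was common: 36.1% of all tested genes were highest in both of these libraries and 45.4% lowest in both, against 3 of 6 factors each.

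The split went with base composition. The longest GENCODE 29 transcript had a GC content of 38.5% for ZEB1, 39.1% for ZEB2 and 41.0% for PRRX1, against 57.0% for TWIST2, 58.2% for SNAI1 and 63.2% for FOXC2. Among tested genes of 30.2% to 40.7% GC, 94.1% were highest in both libraries, and among those of 57.8% to 73.9% GC, 93.8% were lowest in both. After removal of each library's GC trend, 0 of the 6 factors remained highest in both, against 21.4% of tested genes. ZEB2 was then lowest in both, as were 21.5% of tested genes, at -0.24 in estradiol replicate 4 and -0.32 in control replicate 3. The labels name no batch, and what set these libraries apart was not tested.

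**Figure D4:**
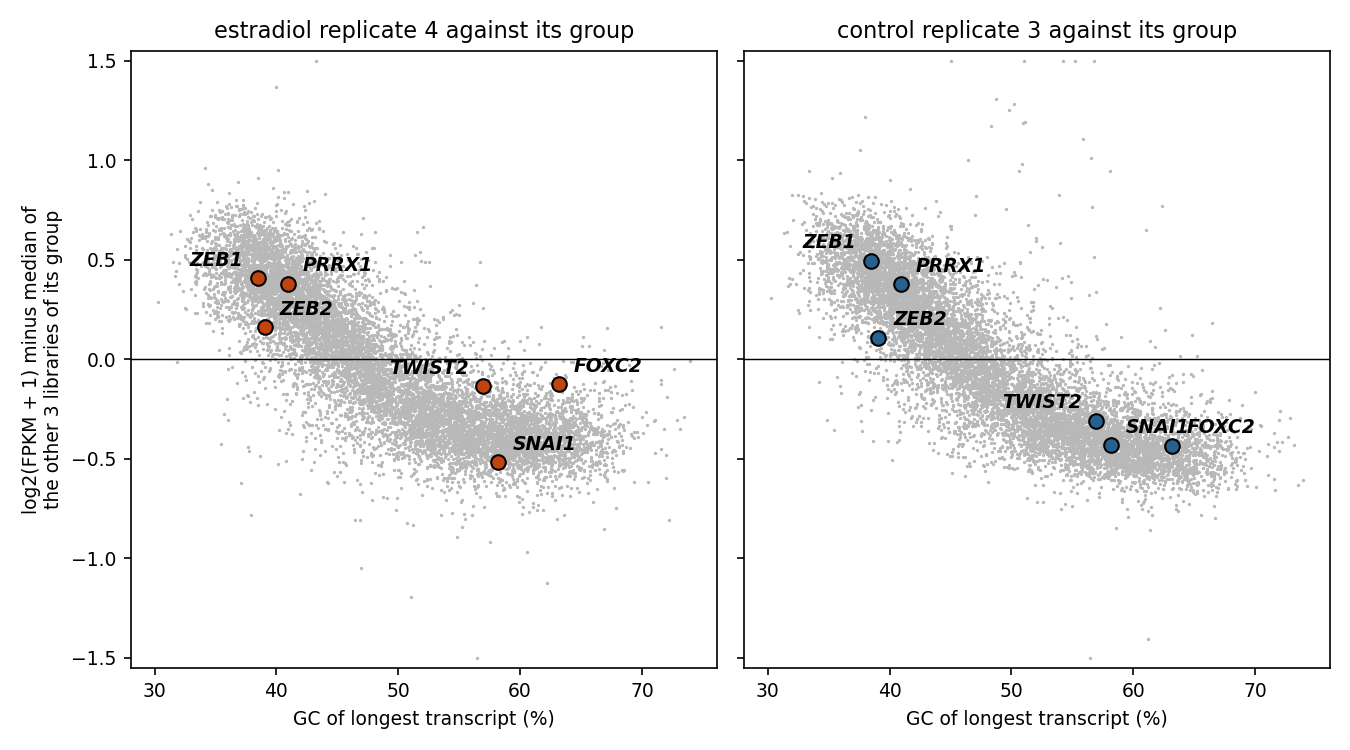
Deviation of estradiol replicate 4 (left) and control replicate 3 (right) from the median of the other 3 libraries of its group, on the log2(FPKM + 1) scale, against GC content of the longest transcript (%). Grey points are all tested genes with a GC value, drawn at the edge where beyond 1.5. ZEB1, ZEB2 and PRRX1, at 38.5% to 41.0% GC, lie above 0 and TWIST2, SNAI1 and FOXC2, at 57.0% to 63.2%, lie under 0 in both panels.

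To show this contrast, the first 150 coding bases of ZEB1, on the plus strand of chromosome 10, and of TWIST2, on the plus strand of chromosome 2, are printed from GENCODE 29 (GRCh38), with G and C in capitals. They hold 44% and 70% GC. The whole coding regions, of 3375 and 480 bases, hold 43.5% and 66.5%.
ZEB1: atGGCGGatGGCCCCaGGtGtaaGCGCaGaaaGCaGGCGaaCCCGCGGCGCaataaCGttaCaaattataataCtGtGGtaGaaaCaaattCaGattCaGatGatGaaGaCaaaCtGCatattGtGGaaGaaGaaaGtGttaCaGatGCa
TWIST2: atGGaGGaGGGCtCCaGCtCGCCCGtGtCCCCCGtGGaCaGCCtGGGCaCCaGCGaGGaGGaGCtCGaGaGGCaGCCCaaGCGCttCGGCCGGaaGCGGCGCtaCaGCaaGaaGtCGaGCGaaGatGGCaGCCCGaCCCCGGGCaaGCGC

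Promoter windows of 300 bases, from 250 before to 50 after a start site, came from the RefSeq table (GRCh38.p14). Those of 4 of the 8 factors were taken: ZEB1 (7 starts), ZEB2, TWIST2 and PRRX1. Windows of the other factors were not examined, and this does not mean that the table lacks them. The 35116 windows used for comparison are all those of the table, so they were not chosen in the same way. The windows of the 4 factors were searched for the E-box bound by SNAI and ZEB proteins, CAGGTG or its reverse complement CACCTG. They were also searched for the full estrogen response element GGTCANNNTGACC, whose reverse complement has the same form. The E-box letters were in 2 of the 7 ZEB1 windows, with 1 and 3 matches, and in none of the other 3 windows, against 20.6% of the 35116 windows of the table. The response element was in none of the 10 windows, and 0.0570% of all windows held it, so its absence was likely in any such set. Its half-site, GGTCA or the reverse complement TGACC, had 1 match in each of the ZEB1 windows starting at 31318167, 31318568 and 31319518. No ZEB2, TWIST2 or PRRX1 window held the half-site, against 37.4% of all windows with it. Printed with E-box letters in capitals are the ZEB1 window with 3 matches, at chr10:31318966-31319265 on the plus strand, and that of TWIST2, which had the largest log2(FPKM + 1) difference of the 6 tested factors, at chr2:238847835-238848134 on the plus strand. A match is only a match of letters, and a window without one says nothing of binding elsewhere.
ZEB1: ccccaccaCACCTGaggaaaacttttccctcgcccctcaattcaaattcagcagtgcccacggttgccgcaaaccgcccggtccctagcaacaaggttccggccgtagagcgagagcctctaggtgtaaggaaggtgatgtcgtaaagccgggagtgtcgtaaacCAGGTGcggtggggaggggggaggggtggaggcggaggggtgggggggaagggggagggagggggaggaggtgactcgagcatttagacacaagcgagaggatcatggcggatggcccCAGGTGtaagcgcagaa
TWIST2: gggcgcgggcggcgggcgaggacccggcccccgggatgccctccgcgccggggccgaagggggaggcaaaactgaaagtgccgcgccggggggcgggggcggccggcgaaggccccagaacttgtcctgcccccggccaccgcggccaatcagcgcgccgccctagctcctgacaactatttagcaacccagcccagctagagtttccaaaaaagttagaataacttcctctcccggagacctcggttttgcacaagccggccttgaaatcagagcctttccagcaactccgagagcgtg

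For each tested factor, the 2 genes with the nearest profile were found by the root mean square difference of centred log2(FPKM + 1) over the 8 libraries. They were AP3M1 (0.0249) and PARP11 (0.0259) for ZEB1, HIPK1 (0.0131) and DNAJC18 (0.0186) for ZEB2, and WDR5B (0.0322) and TRMT1L (0.0410) for PRRX1. For SNAI1 they were FBXW9 (0.0488) and MRPS2 (0.0559), for FOXC2 VWA1 (0.0489) and TSHZ1 (0.0616), and for TWIST2 HOMEZ (0.0614) and TNFRSF21 (0.0624). The factors' own root mean square deviations over the 8 libraries were 0.192 for ZEB1, 0.0804 for ZEB2, 0.172 for PRRX1, 0.245 for SNAI1, 0.215 for FOXC2 and 0.167 for TWIST2. No nearest gene was another member. In the order given, the nearest genes had a GC content of 41.2% and 39.1% for ZEB1, 44.3% and 45.8% for ZEB2, and 40.5% and 38.6% for PRRX1. It was 63.6% and 61.4% for SNAI1, 66.9% and 51.6% for FOXC2, and 46.0% and 50.9% for TWIST2, so it did not follow the member's own GC content in every case.

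Other genes of these pathways gave 0 calls in either direction, as did all genes. Among 14 related factors, 6 were tested, with 1 positive and 5 negative log2 fold changes. E proteins, the partners of TWIST, were well detected: TCF12 averaged 9.11 ± 1.24 FPKM in estradiol and 8.91 ± 1.03 FPKM in control libraries, and TCF3 7.995 ± 1.01 and 8.50 ± 1.84 FPKM (SD, n = 4 each). FOXC1, the relative of FOXC2, averaged 5.20 ± 0.637 and 5.37 ± 0.701 FPKM in these groups, and HAND2, another helix-loop-helix factor, 2.82 ± 0.213 and 3.02 ± 0.505 FPKM. SNAI3 had 7 reads and PRRX2 20 reads over all 8 libraries, and SOX9, GSC and LEF1 were listed at 0.

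ID proteins bind E proteins and keep helix-loop-helix factors from DNA. Of the 11 inhibitory and opposing genes 3 were tested, all ID genes, with 3 positive log2 fold changes and a median of 0.10. ID1 averaged 2.49 ± 0.480 FPKM in estradiol and 1.98 ± 0.537 FPKM in control libraries (log2 fold change 0.24 ± 0.15 SE, limma adjusted p = 0.999989), and ID2 1.55 ± 0.231 and 1.40 ± 0.30 FPKM (SD, n = 4 each). The epithelial factors OVOL2 and GRHL2 were listed at 0. So were MIR200CHG and MIR205HG, host genes of microRNAs known to repress the ZEB genes.

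Targets known to be repressed by these factors had 7 of 16 genes tested, with 3 positive and 4 negative log2 fold changes and a median of -0.03. The endothelial cadherin CDH5 averaged 125 ± 15.2 FPKM in estradiol and 129 ± 19.5 FPKM in control libraries, and the tight junction gene CLDN5 1.60 ± 0.258 and 2.03 ± 0.540 FPKM (SD, n = 4 each). CLDN7, an epithelial claudin, averaged 2.79 ± 0.591 and 2.49 ± 0.532 FPKM in these groups. CDH1, the epithelial cadherin, had 2 reads over all libraries. Of 16 mesenchymal genes known to be induced, 11 were tested, with 5 positive and 6 negative values and a median of -0.01. The collagen gene COL5A2 averaged 11.1 ± 0.458 FPKM in estradiol and 11.5 ± 0.530 FPKM in control libraries, and S100A4, a calcium-binding protein of motile cells, 1.10 ± 0.240 and 0.967 ± 0.344 FPKM (SD, n = 4 each). CDH2, the N-cadherin, averaged 19.5 ± 0.396 and 19.1 ± 1.02 FPKM with estradiol and in controls, while COL1A1 stood at 0.0472 ± 0.0272 and 0.0407 ± 0.0174 FPKM (SD, n = 4 each).

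Upstream, 11 of 15 genes of TGF-beta signalling were tested, with 3 positive and 8 negative log2 fold changes and a median of -0.04. ENG, the co-receptor endoglin, averaged 28.1 ± 3.23 FPKM in estradiol and 33.3 ± 7.73 FPKM in control libraries, and the type I receptor gene ACVRL1 19.8 ± 3.20 and 21.8 ± 3.20 FPKM (SD, n = 4 each). Among 17 genes for corepressors and for the stability of the proteins, 16 were in the table and 15 were tested, with 7 positive and 8 negative values and a median of -0.01. KDM1A, a histone demethylase recruited by SNAI1, averaged 20.9 ± 0.551 and 19.7 ± 1.14 FPKM in these groups, and USP27X, a deubiquitinase, 1.64 ± 0.191 and 1.76 ± 0.104 FPKM. LOXL2, a lysyl oxidase family member, averaged 226 ± 31.0 and 227 ± 32.2 FPKM (SD, n = 4 each). Of 12 antisense, neighbouring and microRNA host genes, 11 were in the table and 4 were tested, with 2 positive and 2 negative values and a median of -0.02. SNAI3-AS1 averaged 0.962 ± 0.261 FPKM in estradiol and 1.12 ± 0.139 FPKM in control libraries, and HDAC9, the neighbour of TWIST1, 1.92 ± 0.267 and 2.10 ± 0.350 FPKM (SD, n = 4 each).

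The labelled cell type was checked against markers. Of 12 endothelial markers, 11 reached a mean of 1 FPKM, with a summed level of 505 to 651 FPKM in estradiol and 501 to 686 FPKM in control libraries. VWF was under 1 FPKM, and KDR, a VEGF receptor, averaged 30.0 ± 1.46 and 31.1 ± 1.42 FPKM with estradiol and in controls (SD, n = 4 each). Of 8 fibroblast markers 2 reached it, FAP and POSTN, and POSTN alone averaged 262 ± 63.3 and 253 ± 48.8 FPKM (SD, n = 4 each), while LUM was listed at 0. Of 6 smooth muscle markers 2 reached it, ACTA2 (11.6 ± 1.70 and 12.0 ± 1.66 FPKM in these groups) and TAGLN (7.35 ± 1.91 and 7.17 ± 1.27 FPKM), with DES listed at 0. Of 7 epithelial markers 3 reached it, all keratins, led by KRT19 (46.7 ± 6.11 and 51.0 ± 9.24 FPKM) and KRT18 (44.4 ± 5.31 and 48.4 ± 9.19 FPKM), with GRHL2 listed at 0, and of 5 macrophage markers 1, CD68 (38.7 ± 5.39 and 40.4 ± 5.31 FPKM), with PTPRC at 5 reads in all. Of 4 lymphatic markers LYVE1 reached it (10.2 ± 0.625 and 10.5 ± 1.02 FPKM), and PROX1, the lymphatic regulator, had 158 reads over the 8 libraries.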

How the data were processed

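RNA-seq levels of 8 TeloHAEC libraries, 4 with estradiol and 4 controls, were deposited by the authors as FPKM per gene symbol. Per the submitters' processing notes, fastp 0.20.1 and HTSeq were used. Aligner, build, annotation and strand use: not given in the sources used here. FPKM steps gave whole reads for 100.0% of the 152348 values above 0 (relative tolerance 1e-06), 33421051 to 39899258 reads per library.

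Genes averaging 1 FPKM or more were tested with limma 3.58.1 (R 4.3.3, mean-variance trend, log2(FPKM + 1), two-sided), adjusted p under 0.05 over all of them. The 2 members under that level and single ratios had exact permutation tests (scipy 1.17.1). GC content came from GENCODE 29 transcripts matched by name for 95.6% of tested genes. The gene test and the read recovery were tested on simulated data. No 2 libraries were identical. Alternatives were other scalings, filters, pseudocount, limma-voom, blocks and left-out libraries. The members, lists, tests and the pair of libraries set apart were chosen with earlier results of these data known. The rule for named genes took all 8 members, the 2 genes with the smallest p in each list and the 2 nearest profiles of each tested member. SNAI3, PRRX2, CDH1, TCF12, FOXC1, CDH5, CDH2, COL1A1, LOXL2, VWF, the 2 antisense neighbours, the genes listed at 0 and the other markers were added after their values were seen.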

Additional observations from a re-analysis of the deposited data

Results flagged for a closer look

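Among 22 sets of 4 libraries (the FPKM of each factor and the 3 family ratios, in each group), 2 held a library that lay far from the other 3. Chance flags about 1 in 20 such sets. PRRX1 stood at 4.18 FPKM in estradiol replicate 4, against 2.86 to 3.06 FPKM in the other estradiol libraries, a gap of 0.851 of the group's range, above the 95% limit of Dixon's test for 4 values. The highest control value, 4.33 FPKM in control replicate 3, was in the other library whose deviations went with GC content. The TWIST2 to TWIST1 log2 ratio was 4.74 in estradiol replicate 3, a gap of 0.887 of the range, and TWIST1 had 7 reads there, with an exact 95% Poisson interval of 2.81 to 14.4.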

How the results depend on the processing

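Under all 22 alternatives to the test across genes, 0 genes and 0 of the factors passed, with a smallest adjusted p of 0.0809 (no filter on low values). With the replicate block, 0 genes passed and 11 had an unadjusted p under 0.05. Libraries of the same number had correlations of their deviations from -0.737 to 0.616, and estradiol replicate 4 with control replicate 3 had 0.791. The GC trend was left in these values, so they cannot settle whether the numbers pair the samples. TWIST2 kept a negative log2 fold change under each of its 21 alternatives, from -0.27 to -0.14. With 1 library left out, log2 fold changes ran from -0.12 to 0.090 for ZEB1, -0.00087 to 0.072 for ZEB2, -0.24 to 0.019 for SNAI1, -0.16 to 0.12 for FOXC2 and -0.14 to 0.047 for PRRX1, so their directions are not stable. The SNAI2 difference ran from -0.0626 to 0.00694 FPKM and that of TWIST1 from -0.126 to -0.0260 FPKM. The log2 ratio differences, estradiol minus control, ran from -0.013 to 0.14 for ZEB2 to ZEB1, -0.25 to 0.41 for TWIST2 to TWIST1 and -0.39 to 0.22 for SNAI2 to SNAI1. Without control replicate 3 and estradiol replicate 4 the ZEB1 value was 0.0013, and with the GC trend removed that of FOXC2 was 0.013. Apart from those left-out libraries and these fits, no direction turned, and the cause was not tested. The order of mean levels stayed the same with any 1 library left out. limma-voom at a mean FPKM of at least 0.1, and the replicate block for single values, were chosen after seeing the data. TWIST1 and SNAI2 had 7 to 30 reads a library, so counting error is a larger share of their spread than for the other factors.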
